A study of Mus musculus with 20 samples.

Results

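Amino acid transporters of the kidney were followed across 5 groups of C57BL/6 mice. The genes were taken from the array by name: every gene name of the solute carrier families SLC1, SLC3, SLC6, SLC7, SLC36, SLC38 and SLC43 was kept, which gave 62 of the 27827 gene names, read by 109 of 41174 probes. The rule reads names alone. Whole kidney RNA of adult male mice was hybridised to 20 one-colour arrays, 4 for each group. Control mice had neither surgery nor treatment. IRI (ischemia/reperfusion injury) mice had both renal pedicles clamped for 45 minutes and the kidney was taken after 6 hours of reperfusion. IRI+Hemin mice received 25 mg/kg of Hemin, an inducer of heme oxygenase, 24 hours before the same injury. IPC+IRI mice were preconditioned by a clamp of 15 minutes 7 days before it (ischemic pre-conditioning). Hemin mice received the drug at the same dose without surgery. No group had a sham operation or preconditioning alone, so injury cannot be told apart from anaesthesia and surgery in these data. The labels number the samples of a group without naming animals, so p-values measure the spread between these samples.

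The proximal tubule reclaims nearly all filtered amino acids. Transporters of the luminal membrane take them up from the urine with sodium or protons, and exchangers and uniporters of the basolateral membrane pass them to the blood. Some transporters work only in a pair of a light chain, which carries the amino acid, and a heavy chain, which brings the pair to the membrane. Another set, known from growing and stressed cells, imports glutamine, leucine, arginine, cystine or glycine for protein synthesis, and several of its genes are known targets of ATF4, the transcription factor of the amino acid and integrated stress response.

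All levels below are log2 of the background-subtracted signal over the 75th percentile of the same array, so that 0 is the level of that percentile and a step of 1 is a 2-fold step. Levels of different genes come from different probes and are not compared with each other. Of the 62 genes, 40 were well above the background of the scanner software on all 20 arrays and 4 on none. At least 3 of 4 arrays of a group compared had to be well above background for a test. This left 52 genes tested in at least 1 comparison and 10 in none, among them Slc7a11, Slc7a10, Slc7a14, Slc38a5, Slc38a11 and Slc1a7. One name that the choice admits, Slc7a6os, is a neighbour of Slc7a6 and no transporter. It stays in the counts over all members, and it is among the rises in IRI vs Control (0.31), IRI+Hemin vs IRI (0.33) and IRI+Hemin vs Hemin (0.41). Genes with an adjusted p below 0.05 in the limma fit over all genes count as called, and "rose" and "fell" are used of those alone.

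No slide held more than 1 group, and the effects of slide and group cannot be told apart. Scanning took 3 days. Control and IRI shared a day, IPC+IRI and Hemin shared another, and IRI+Hemin was scanned alone. IRI vs Control and IPC+IRI vs Hemin are thus the comparisons within a day. The latter pair differs in injury, preconditioning and Hemin at once. The 75th percentile signal had a median of 199.8 for Control and 198.9 for IRI, and of 254.3 for IPC+IRI, 273.3 for Hemin and 283.2 for IRI+Hemin. Between 57.4% (an IRI array) and 67.4% (a Hemin array) of gene names were well above background. All 6 proximal tubule markers were detected in every group. Their summed level, in multiples of the 75th percentile, was 407 to 450 in Control and 384 to 403 in Hemin, and 299 to 420 in IRI, 291 to 332 in IPC+IRI and 261 to 375 in IRI+Hemin. The summed leukocyte markers were 0.847 to 1.1 in Control and 0.835 to 2.01 in Hemin, and 3.62 to 8.95 in IRI, 6.74 to 20.2 in IPC+IRI and 2.76 to 10.7 in IRI+Hemin. In whole kidney RNA, fewer cells of a type and less RNA per cell cannot be told apart, and the part of these shifts in the values below was not tested.

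Counts of called members are set beside the share of all tested genes called in the same direction. In IRI vs Control 7 of 50 tested members rose and 15 fell, where 17.0% of all tested genes rose and 33.7% fell. In IPC+IRI vs Control 10 of 51 rose and 17 fell, against 23.1% and 32.6% of all genes. In IPC+IRI vs IRI 6 of 51 rose and 16 fell, against 26.0% and 17.7%. In IRI+Hemin vs IRI 12 of 49 rose and 12 fell, against 26.1% and 18.0%. In Hemin vs Control 5 of 52 rose and 11 fell, against 18.4% and 17.5%. In IPC+IRI vs Hemin 6 of 52 rose and 12 fell, against 13.1% and 22.7%. The balance of rises and falls depended on the scaling. Without normalization between arrays it was 19 higher and 1 lower for Hemin vs Control, 13 and 7 for IPC+IRI vs Control, 9 and 2 for IPC+IRI vs IRI, and 13 and 4 for IRI+Hemin vs IRI. The percentile over probes well above background on all arrays gave 1 higher and 14 lower for Hemin vs Control. Quantile normalization gave 10 and 13 for IRI vs Control, 9 and 14 for IRI+Hemin vs IRI, and 7 and 9 for IPC+IRI vs Hemin. Leaving out 1 array gave 2 to 6 higher and 7 to 12 lower for Hemin vs Control, with the fewest rises without Control replicate 3. The median log2 difference of the tested members was -0.16 in IRI vs Control, with -0.17 over all genes, and -0.24 in IPC+IRI vs Control, with -0.09 over all genes. It was -0.23 in IPC+IRI vs IRI, with 0.09 over all genes, -0.11 in IRI+Hemin vs IRI, with 0.08, and -0.05 in Hemin vs Control, with 0.06. Single genes moved far more than these medians, and they are described by role.

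**Figure D1:**
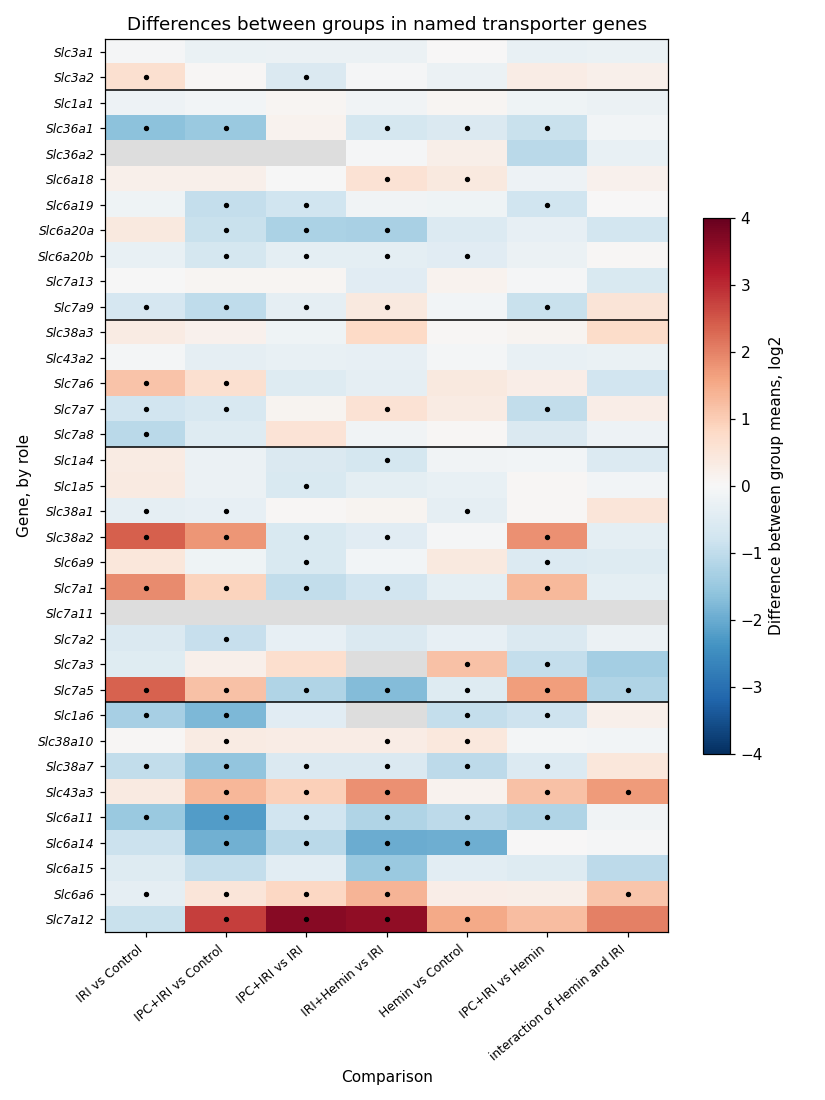
Log2 difference between group means for the 35 named genes in 7 comparisons, grouped by lines into heavy chains, luminal, basolateral, growth and stress uptake and other members. A dot marks an adjusted p below 0.05, and grey marks a gene not tested. Slc38a2 and Slc7a5 were the strongest rises of IRI vs Control (2.38 and 2.37), and Slc7a12 of the comparisons of IPC+IRI and IRI+Hemin with IRI (3.65 and 3.55).

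Uptake for growth and stress held the 3 largest rises of IRI vs Control. Of the 10 genes of this group, 9 were tested in IRI vs Control. Slc38a2, Slc7a5 and Slc7a1 rose more than 2-fold, Slc38a1 fell by 0.37 and 5 were not called. Of all tested genes, 17.0% rose and 33.7% fell. Preconditioned and Hemin-treated injured kidneys stood lower than IRI for several of the uptake genes. In IPC+IRI vs IRI 5 of 9 tested genes fell and none rose, and in IRI+Hemin vs IRI 4 of 8 fell and none rose, where 17.7% and 18.0% of all genes fell and 26.0% and 26.1% rose. These falls depended on the scaling. Without normalization between arrays, Slc7a5 alone of these genes was still called lower, with -0.9 in IPC+IRI vs IRI (adjusted p = 0.0272) and -1.37 in IRI+Hemin vs IRI (adjusted p = 0.00166). Markers of other cells moved in IPC+IRI vs IRI as well. All 3 tested red cell markers fell, with a median of -1.61, and 2 of 4 endothelial markers fell. Their summed levels were 75.9 to 97.2 in IRI and 10.6 to 54.2 in IPC+IRI for red cells, and 11.3 to 15.8 and 7.57 to 21.5 for endothelium. Their part in the values was not tested.

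Slc38a2 encodes SNAT2, a sodium-coupled importer of small neutral amino acids that rises when cells lack them. Its level was 0.77, 0.79, 0.72 and 0.72 on the Control arrays and 2.88, 3.28, 3.02 and 3.34 on the IRI arrays. It was 2.56, 2.64, 2.66 and 2.90 in IRI+Hemin, 2.42, 2.58, 2.52 and 2.56 in IPC+IRI, and 0.49, 0.69, 1.09 and 0.49 in Hemin. All injured kidneys lay far above all uninjured ones, with no overlap. IRI stood 5.2-fold above Control (log2 difference 2.38 ± 0.13 SE, adjusted p = 6.79e-10). Every IPC+IRI array was below every IRI array, with a log2 difference of -0.61 (adjusted p = 0.00131), whereas IRI+Hemin overlapped with IRI (-0.44, adjusted p = 0.0114). The rise with injury was 2.38 without Hemin and 2.00 with it, and the difference of these was not called (-0.38 ± 0.18, adjusted p = 0.233). The deposited log2 table gave 0.08 for IPC+IRI vs IRI and 0.31 for IRI+Hemin vs IRI, neither of them called. All 4 probes of the gene were well above background on every array and all rose in IRI vs Control, by 1.57 to 2.43. In IPC+IRI vs IRI 3 of them gave -0.66 to -0.45 and the probe at chromosome 15, 96527422 to 96527481 (mm9) gave 0.78 (adjusted p = 0.00644).

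Slc7a5 encodes LAT1, the light chain that exchanges glutamine for leucine and other large neutral amino acids. The Control arrays read -2.22, -3.13, -2.60 and -2.88, and the IRI arrays -0.22, -0.49, -0.41 and -0.22. Levels were -2.17, -1.83, -2.27 and -2.01 in IRI+Hemin, -1.79, -1.52, -1.77 and -1.11 in IPC+IRI, and -3.33, -3.60, -3.02 and -2.99 in Hemin. Each IRI array was above every array of the other 4 groups. The rise over Control was 2.37 ± 0.19 (adjusted p = 5.19e-08). It was 1.16 ± 0.19 in IPC+IRI vs Control (adjusted p = 8.12e-05), and IPC+IRI stood below IRI by a log2 difference of -1.21 (adjusted p = 0.000117). IRI+Hemin was 3.33-fold below IRI (-1.74 ± 0.19, adjusted p = 5.55e-06). In mice given Hemin the injury rise was 1.16 in place of 2.37, and this difference, the interaction of Hemin and IRI, was called (-1.21 ± 0.27, adjusted p = 0.0112). Among 52 tested members it was the only lower interaction, where 1.95% of all genes were called lower. This call was lost with normexp background correction (-0.73, adjusted p = 0.0651) and without normalization between arrays (-1.41, adjusted p = 0.105).

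Slc7a1 encodes CAT-1, the general importer of arginine and lysine. Control read -1.79, -2.07, -2.19 and -1.82, and IRI -0.06, -0.28, 0.00 and 0.06. The difference was 1.90 ± 0.21 (adjusted p = 1.77e-06) without overlap. IPC+IRI and IRI+Hemin were lower than IRI by log2 differences of -1.0 and -0.77 (adjusted p = 0.00121 and 0.00732). The probes disagreed about injury. The probe at chromosome 5, 149138970 to 149139003 (mm9) rose by 2.35, and the probe at 149143820 to 149143879 fell by 0.80 (adjusted p = 0.0234). Both probes were lower in IPC+IRI and in IRI+Hemin than in IRI.

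**Figure D2:**
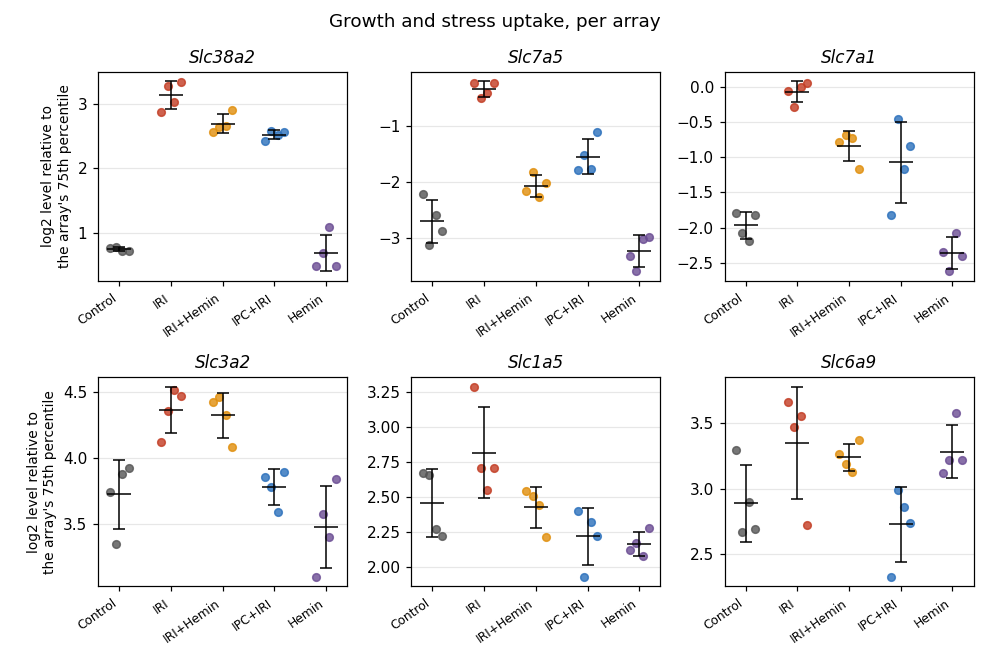
Levels of 6 genes of amino acid uptake on each of the 20 arrays (points), with the mean and SD of 4 arrays (bars), as log2 relative to the 75th percentile of the array. Slc7a5 was highest on the 4 IRI arrays (-0.49 to -0.22), above IPC+IRI (-1.79 to -1.11) and IRI+Hemin (-2.27 to -1.83), the latter just overlapping with Control (-3.13 to -2.22).

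Slc3a2, the 4F2hc heavy chain that partners LAT1 and the other SLC7 light chains of the basolateral membrane, read 3.74, 3.35, 3.88 and 3.92 in Control and 4.12, 4.35, 4.51 and 4.47 in IRI. The groups did not overlap, and the rise of 0.64 ± 0.16 (adjusted p = 0.00252) was smaller than that of Slc7a5. In IPC+IRI it read 3.85, 3.78, 3.59 and 3.89, not called against Control (0.05, adjusted p = 0.791) and below IRI without overlap (-0.58, adjusted p = 0.00607). In the deposited log2 table the IRI vs Control value was -0.73 and the IPC+IRI vs IRI value 0.82, neither of them called. Slc3a1, the rBAT heavy chain of the luminal cystine carrier, was called in no comparison, with group means between 5.41 and 5.71.

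The remaining uptake genes changed less. Slc1a5 (ASCT2, glutamine) read 2.67, 2.66, 2.27 and 2.22 in Control, 3.29, 2.71, 2.55 and 2.71 in IRI, and 2.40, 1.93, 2.32 and 2.22 in IPC+IRI. IPC+IRI lay below IRI without overlap (-0.60 ± 0.16, adjusted p = 0.00502), and IRI vs Control was not called (0.36, adjusted p = 0.0622). Slc6a9 (GLYT1, glycine) was lower in IPC+IRI than in IRI (-0.62 ± 0.20, adjusted p = 0.0154), with overlap. Slc1a4 (ASCT1, serine and alanine) was lower in IRI+Hemin than in IRI (-0.69 ± 0.24, adjusted p = 0.0264), also with overlap. Slc7a2 (CAT-2) was lower in IPC+IRI than in Control (-0.91 ± 0.32, adjusted p = 0.0221). Slc7a3 (CAT-3), well above background on 1 IRI array and on all 4 Hemin arrays, rose in Hemin vs Control from -4.93 to -3.87 up to -3.44 to -2.78, a difference of 1.17 ± 0.37 (adjusted p = 0.0195). Slc38a1 (SNAT1) was lower than Control in IRI, IPC+IRI and Hemin by log2 differences of -0.37, -0.33 and -0.37, and its brightest probe gave 0.46, 0.75 and 0.24 in the same comparisons, so the direction depends on the probe.

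Slc7a11 encodes xCT, the cystine and glutamate exchanger that feeds glutathione synthesis. None of its 4 probes was well above background on 3 of 4 arrays of any group, and it was not tested. The IRI arrays read -5.05, -5.98, -6.50 and -6.06 and the Control arrays -6.56, -6.60, -6.86 and -6.85.

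The start regions of the genes were searched for 2 sets of letters tied to these stress responses. RefSeq windows of 300 bases (250 before the start and 50 after it, assembly GRCm38.p6) were given for 44 of the 62 genes, in 65 windows, some of which overlap, and not for Slc7a5, Slc7a12, Slc43a3, Slc6a6 or Slc1a5. The letters TGATGNAA of the composite element that ATF4 binds with C/EBP factors were found, on either strand, in 4 of 65 windows (6.15%) and in 3.97% of all 32851 windows. The genes were Slc1a4, Slc7a11 and Slc7a7. The letters TGACNNNGC of the antioxidant response element, which NRF2 binds, were found in 11 of 65 windows (16.9%) and in 12.4% of all. Genes with a match included Slc38a2 and Slc7a1, which rose with injury, and Slc36a1 and Slc6a11, which fell. A match is a description of the letters and no evidence of binding. The windows of Slc38a2 hold no TGATGNAA. The stretches below are examples of such matches in uptake genes described above and in the basolateral carrier Slc7a7, and other matches, such as those of Slc6a9, are not printed. They are written 5′ to 3′ on the strand of the gene, with the letters of the element, or of its reverse complement, in capitals. For Slc7a11 (chr3:50443614-50443863, minus strand) and Slc38a2 (chr15:96699729-96699978, minus strand) they are the 250 bases before the start. For Slc1a4 (chr11:20332695-20332732, minus strand), Slc7a7 (chr14:54417925-54418100, minus strand) and Slc7a1 (chr5:148399892-148399930, minus strand) they reach across the start.
Slc7a11, TGATGNAA: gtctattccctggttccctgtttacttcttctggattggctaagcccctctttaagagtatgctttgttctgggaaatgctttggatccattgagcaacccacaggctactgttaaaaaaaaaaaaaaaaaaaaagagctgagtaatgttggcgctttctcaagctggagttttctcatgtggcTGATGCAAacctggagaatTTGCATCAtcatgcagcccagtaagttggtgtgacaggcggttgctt
Slc1a4, TGATGNAA: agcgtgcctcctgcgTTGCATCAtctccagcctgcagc
Slc7a7, TGATGNAA: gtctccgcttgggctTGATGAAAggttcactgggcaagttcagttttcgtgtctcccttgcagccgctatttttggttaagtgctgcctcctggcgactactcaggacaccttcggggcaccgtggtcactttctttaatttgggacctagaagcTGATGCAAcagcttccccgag
Slc38a2, TGACNNNGC: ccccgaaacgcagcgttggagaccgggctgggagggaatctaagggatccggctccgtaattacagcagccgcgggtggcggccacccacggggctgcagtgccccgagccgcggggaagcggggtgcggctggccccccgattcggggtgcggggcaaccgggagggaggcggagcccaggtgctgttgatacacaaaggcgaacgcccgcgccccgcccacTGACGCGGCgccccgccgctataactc
Slc7a1, TGACNNNGC: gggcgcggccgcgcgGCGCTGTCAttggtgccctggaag

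The genes of the amino acid response itself, a list of 7 chosen from textbook knowledge, all rose in IRI vs Control, with a median log2 difference of 2.42. Atf4 rose by 2.40, Asns (asparagine synthetase) by 2.42, Ddit3 (CHOP) by 2.12, Trib3 by 3.70, Chac1 by 5.36, Atf3 by 5.57 and Sesn2 by 0.74. All 7 were also higher in IPC+IRI than in Control and in IRI+Hemin than in Hemin. Against IRI, Chac1 and Trib3 were lower in IPC+IRI (both -1.48), and Trib3 and Atf4 were lower in IRI+Hemin (-1.25 and -0.79). Sesn2 was higher in IPC+IRI (0.45). The interaction of Hemin and IRI was called lower for 2 of the 7, Atf4 (-1.21, adjusted p = 0.0238) and Trib3 (-1.84, adjusted p = 0.0441). The other 5 were not called, and the median over the 7 was -0.22. Of all genes, 1.95% were called lower in this term. The 9 transporters listed as known ATF4 targets were Slc3a2, Slc7a1, Slc7a3, Slc7a5, Slc7a11, Slc1a4, Slc1a5, Slc38a2 and Slc6a9, and all but Slc7a11 were tested. In IRI vs Control 4 rose and none fell, with a median of 0.55, where 17.0% of all genes rose and 33.7% fell. In the comparison of IPC+IRI with IRI 6 fell and none rose, with a median of -0.60, where 17.7% of all genes fell and 26.0% rose. Of these 6, Slc7a5 alone was still called without normalization between arrays, and Slc7a5 and Slc1a5 with the deposited log2 values. All of the listed targets but Slc3a2 are also uptake genes, so these counts repeat genes counted above.

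Luminal carriers of the proximal tubule are given by their own values, since their counts are small. Of 8 tested in IRI vs Control 2 fell and 6 were not called, where 33.7% of all genes fell. In IPC+IRI vs Control 5 of 8 fell and none rose, with a median of -0.79, where 32.6% of all genes fell. In IRI+Hemin vs IRI 2 of 9 rose and 3 fell, against 26.1% and 18.0% of all genes. Against Hemin alone, 1 of 9 rose in IRI+Hemin (Slc6a18, 0.38, adjusted p = 0.0467) and 3 fell (Slc36a1, Slc7a13 and Slc1a1), with a median of -0.25, where 16.4% of all genes rose and 27.8% fell.

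Slc36a1 (PAT1, a proton-coupled carrier of small neutral amino acids) fell most. It read 1.58, 1.05, 1.53 and 1.65 in Control and -0.43, 0.29, -0.03 and -0.55 in IRI. In IRI+Hemin it read -0.54, -1.10, -1.17 and -0.70, in IPC+IRI 0.29, -0.14, 0.20 and -0.44, and in Hemin 0.91, 0.80, 0.86 and 0.89. Every other array was below every Control array. IRI was 3.09-fold lower than Control (-1.63 ± 0.20, adjusted p = 4.92e-06), IPC+IRI 2.78-fold lower and IRI+Hemin lower than IRI with overlap (-0.70 ± 0.20, adjusted p = 0.00916). Hemin alone was lower by a log2 difference of -0.59 (adjusted p = 0.0298). The level comes from the probe at chromosome 11, 55049533 to 55049592 (mm9), since the other probe of the gene was above background on 2 of the 20 arrays.

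Slc7a9, the light chain that reclaims cystine and dibasic amino acids together with Slc3a1, read 4.54, 4.06, 4.45 and 4.29 in Control and 3.57, 3.56, 3.86 and 3.69 in IRI. IRI+Hemin read 3.91, 4.17, 3.97 and 4.18, and IPC+IRI 3.61, 3.38, 3.13 and 3.17. IRI was below Control without overlap (-0.66 ± 0.14, adjusted p = 0.000606), IPC+IRI was lower still against Control (-1.01 ± 0.14, adjusted p = 1.07e-05), and IRI+Hemin was above IRI without overlap (0.39 ± 0.14, adjusted p = 0.0271). The value of IPC+IRI vs IRI was -0.35 (adjusted p = 0.0471), with overlap.

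Slc6a19 (B0AT1, the main luminal carrier of neutral amino acids) was lower in IPC+IRI than in IRI. Its levels there were 2.26, 2.54, 1.71 and 2.17, and in IRI 2.74, 3.1, 3.08 and 2.95. The difference was -0.80 ± 0.26 (adjusted p = 0.0212) without overlap, and IRI vs Control was not called (-0.16, adjusted p = 0.641). Against Control, IPC+IRI was lower by a log2 difference of -0.96 (adjusted p = 0.0052), with overlap through 1 Control array at 2.33. Slc6a20a and Slc6a20b, close relatives that carry proline, were both lower in IPC+IRI and in IRI+Hemin than in IRI. For Slc6a20a the IRI arrays read 1.66, 1.38, 1.42 and 1.16, the IPC+IRI arrays 0.04, -0.19, 0.25 and 0.41 and the IRI+Hemin arrays 0.64, -0.62, 0.26 and 0.13. The log2 differences were -1.28 and -1.30 (adjusted p = 0.000484 and 0.000407) without overlap, and those of Slc6a20b -0.38 and -0.40 (adjusted p = 0.0274 and 0.0215). Each rests on a single probe, and whether either probe also reads the related transcript was not tested. Without normalization between arrays, 2 of all members were called lower in IPC+IRI vs IRI, and Slc7a5 was among them. Most of the 4 luminal falls in that comparison thus lost their call.

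Slc6a18 (B0AT3, glycine and alanine) moved the other way, with 3.32, 2.89, 3.33 and 3.59 in IRI and 3.73, 3.91, 3.81 and 3.95 in IRI+Hemin (0.57 ± 0.15, adjusted p = 0.00497). Without injury, Hemin (3.59, 3.46, 3.37 and 3.48) also lay above Control (2.96, 3.14, 3.00 and 3.18). Its probes gave 0.61, 0.62 and 0.13 in Hemin vs Control, the last not called. Slc7a13 (AGT1, aspartate and cystine) was called only in IRI+Hemin vs Hemin (-0.61, adjusted p = 0.0158), a comparison in which 12 of 52 members rose and 15 fell, against 16.4% and 27.8% of all genes. Slc1a1 (EAAC1, glutamate) was also called there alone (-0.42, adjusted p = 0.0281), and its probes differed in IPC+IRI vs Control (-0.76 and 0.86, both called). Slc36a2 (PAT2), which adipose tissue also expresses, was well above background on 11 of 20 arrays, with levels scattered between -6.71 and -0.34. Both measured fat cell markers, Adipoq and Cidec, were highest in their groups on the same arrays. Adipoq was at 2.46 on Control replicate 2, 2.67 on IRI replicate 1 and 1.0 on IRI+Hemin replicate 2, and Cidec at 2.71, 3.29 and 2.76, the arrays where Slc36a2 was highest in these groups (-0.34, -1.04 and -1.5). The part of fat tissue in these levels was not tested.

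**Figure D3:**
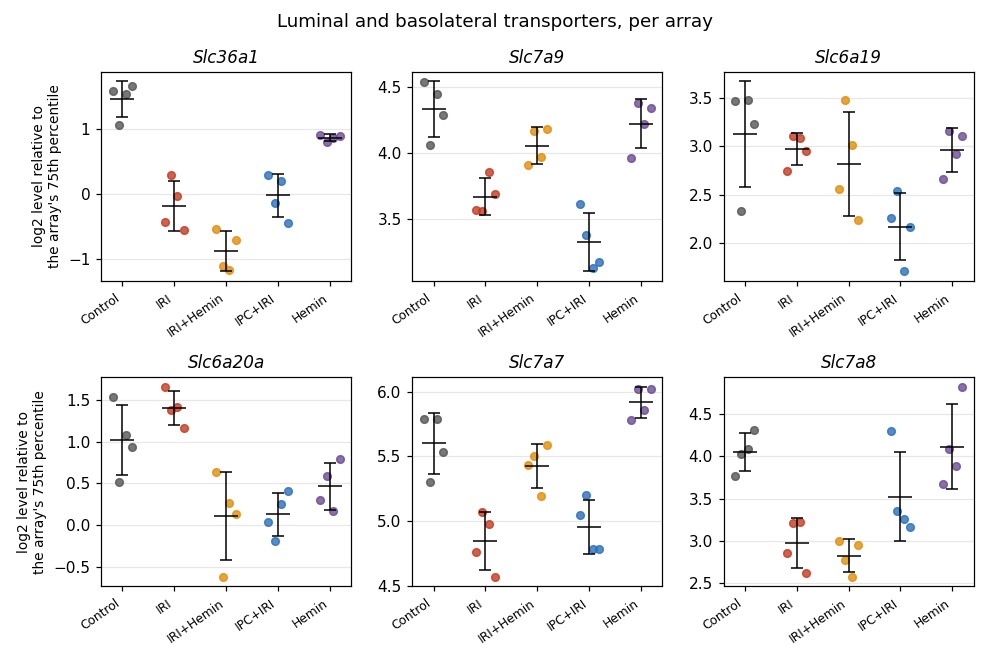
Levels of 4 luminal genes (Slc36a1, Slc7a9, Slc6a19, Slc6a20a) and 2 basolateral genes (Slc7a7, Slc7a8) on each of the 20 arrays (points), with the mean and SD of 4 arrays (bars), as log2 relative to the 75th percentile of the array. Slc36a1 was lower than Control (1.05 to 1.65) on all other arrays, and Slc7a7 was lower in IRI (4.57 to 5.07) than in Control (5.30 to 5.79) and IRI+Hemin (5.19 to 5.59).

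On the basolateral side, Slc7a7 (y+LAT1, which exports arginine and lysine) and Slc7a8 (LAT2, neutral amino acids) fell with injury. Slc7a7 read 5.79, 5.30, 5.79 and 5.53 in Control, 4.76, 5.07, 4.98 and 4.57 in IRI, and 5.43, 5.50, 5.19 and 5.59 in IRI+Hemin. IRI was below both without overlap, with -0.76 ± 0.14 against Control (adjusted p = 0.000296) and 0.58 ± 0.14 for IRI+Hemin vs IRI (adjusted p = 0.00336). IPC+IRI, at 5.05, 5.20, 4.78 and 4.78, was below Control (-0.65, adjusted p = 0.000916) and not called against IRI (0.11, adjusted p = 0.564). IRI+Hemin in turn was below Hemin alone (-0.49 ± 0.14, adjusted p = 0.00987). Within a scan day, IPC+IRI was below Hemin by a log2 difference of -0.97 (adjusted p = 6.62e-05), a pair that also differs in preconditioning and the drug.

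Slc7a8 read 3.76, 4.03, 4.09 and 4.31 in Control and 2.86, 3.21, 3.22 and 2.62 in IRI, a fall of 2.1-fold (-1.07 ± 0.25, adjusted p = 0.00188). It was also lower in IRI+Hemin than in Hemin (-1.28 ± 0.25, adjusted p = 0.000603). IPC+IRI vs Control was not called (-0.53, adjusted p = 0.082). In that group 3 arrays lay at 3.17 to 3.35 and replicate 1 at 4.30.

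Slc7a6 (y+LAT2, the relative of Slc7a7 in non-epithelial cells) rose in IRI vs Control (1.15 ± 0.22, adjusted p = 0.00034), from -4.35 to -3.82 up to -3.34 to -2.50. Its probe at chromosome 8, 108721147 to 108721206 (mm9) carried the rise (1.53), and the other probes were above background on at most 1 array of either group. Slc38a3 (SNAT3, glutamine uptake for ammonia formation) read 2.53, 1.29, 1.25 and 2.90 in IRI+Hemin and 0.64 to 1.22 in Hemin (1.08 ± 0.33, adjusted p = 0.0124). IRI+Hemin vs IRI was not called (0.79, adjusted p = 0.0579). Slc43a2 (LAT4) was called in no comparison, and its 2 probes gave -0.73 and 0.76 in IRI+Hemin vs IRI, both called.

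Among the tested genes outside these roles the widest range belonged to Slc7a12 (Asc-2, a carrier of small neutral amino acids described in kidney). The Control arrays read -1.16, 0.11, -0.69 and 0.65, the IRI arrays -1.74, -0.80, -0.90 and -1.26, the IRI+Hemin arrays 1.68, 3.38, 2.66 and 1.78, the IPC+IRI arrays 2.80, 1.00, 2.78 and 3.33, and the Hemin arrays 1.5, 0.69, 0.15 and 2.64. Every IPC+IRI and every IRI+Hemin array was above every Control and IRI array. IPC+IRI stood 12.6-fold above IRI (3.65 ± 0.56, adjusted p = 8.82e-05), IRI+Hemin 11.7-fold above IRI (3.55 ± 0.56, adjusted p = 0.000107), and IPC+IRI 6.72-fold above Control (2.75 ± 0.56, adjusted p = 0.000501). These comparisons share arrays, and each crosses scan days. Hemin alone overlapped with Control (1.52 ± 0.56, adjusted p = 0.0425), and this call was lost without Control replicate 1 or 3 or Hemin replicate 1 or 4 (1.22, 1.38, 1.43 and 1.05). Within a day, IRI vs Control (-0.90, adjusted p = 0.191) and IPC+IRI vs Hemin (1.23, adjusted p = 0.0955) were not called. Neither sets IPC+IRI or IRI+Hemin against IRI, so they cannot decide whether those differences hold within a day. A single probe reads the gene, at chromosome 3, 14505402 to 14505461 (mm9).

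Slc43a3, a member of the LAT family by sequence that is known as a purine nucleobase carrier, read 0.15, 0.24, 0.21 and -0.16 in Control, 0.39, 0.39, 0.37 and 0.76 in IRI, and 1.75, 2.81, 2.38 and 2.34 in IRI+Hemin. Hemin alone read 0.23, 0.15, 0.69 and -0.06, and IPC+IRI 0.32, 2.05, 2.04 and 1.33. IRI+Hemin was above all other groups except for overlap with IPC+IRI. It was 3.59-fold above IRI (1.84 ± 0.30, adjusted p = 0.00014), and IPC+IRI was above IRI by 0.96 ± 0.30 (adjusted p = 0.0159), with overlap through 1 array. In IRI+Hemin vs IRI 2 of 4 endothelial markers rose and 1 fell, and of 7 leukocyte markers none rose and 1 fell. In the other injured group, IPC+IRI replicate 1, lowest of its group for Slc43a3 (0.32), was lowest for Emcn (2.63, others 3.39 to 4.21) and Pecam1 (-3.67, others -2.53 to -1.72). The same array was lowest of its group for 5 of 7 leukocyte markers, among them Ptprc (-3.36, others -2.21 to -1.6), Itgam (-5.02, others -3.2 to -2.26) and Cd68 (-2.17, others -0.95 to -0.47). Their part in the values of Slc43a3 was not tested.

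Slc6a6 encodes TauT, which holds taurine in renal cells as an osmolyte. It read 3.27, 3.14, 3.19 and 3.14 in Control, 2.83, 2.92, 2.93 and 2.65 in IRI, 3.81, 4.28, 4.31 and 4.40 in IRI+Hemin and 3.93, 3.53, 3.79 and 3.40 in IPC+IRI. Hemin alone read 3.68, 3.46, 3.44 and 3.18. IRI lay below all other groups, and IRI+Hemin was 2.58-fold above it (1.37 ± 0.14, adjusted p = 3.44e-06). Its probes split. The probe at chromosome 6, 91708620 to 91708679 (mm9) gave 1.57 for IRI+Hemin vs IRI, and the probe at 91699793 to 91700295 gave -0.60, both called. In IPC+IRI vs IRI they gave 1.02 and -0.88, again both called. On the second probe the IRI mean (1.28) was above those of IRI+Hemin (0.68), IPC+IRI (0.40) and Hemin (0.56). Among the other osmolyte and creatine carriers, Slc6a12 (betaine) was higher in IRI+Hemin than in IRI (1.06 ± 0.36, adjusted p = 0.0226) and Slc6a8 (creatine) lower (-0.68 ± 0.19, adjusted p = 0.0076). Slc6a13 was not called there (-0.07, adjusted p = 0.787).

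The interaction of Hemin and IRI, which asks whether injury changed a gene to another degree in mice given Hemin, was called higher for 3 of 52 members, where 5.82% of all genes were called. For Slc43a3 the difference with injury was 2.07 under Hemin and 0.36, not called, without it (interaction 1.70 ± 0.43, adjusted p = 0.0195), a call that was lost with normexp (adjusted p = 0.0586). Without normalization between arrays, neither Slc43a3 (1.5, adjusted p = 0.192) nor Slc6a6 (0.90, adjusted p = 0.159) was called. For Slc6a6 these values were 0.76 and -0.35 (1.11 ± 0.20, adjusted p = 0.00258), with 1.16 on the probe at 91708620 and 0.29 (adjusted p = 0.636) on the other. For Slc1a2 (GLT-1, glutamate) they were 0.01 and -0.95 (0.96 ± 0.23, adjusted p = 0.0147), at levels between -5.01 and -3.60 where its 4 probes disagreed, and it was -0.01 with another background correction (normexp). Slc1a2 was singled out after its values were seen. For Slc7a12 the interaction was 2.03 ± 0.79 and not called (adjusted p = 0.131).

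**Figure D4:**
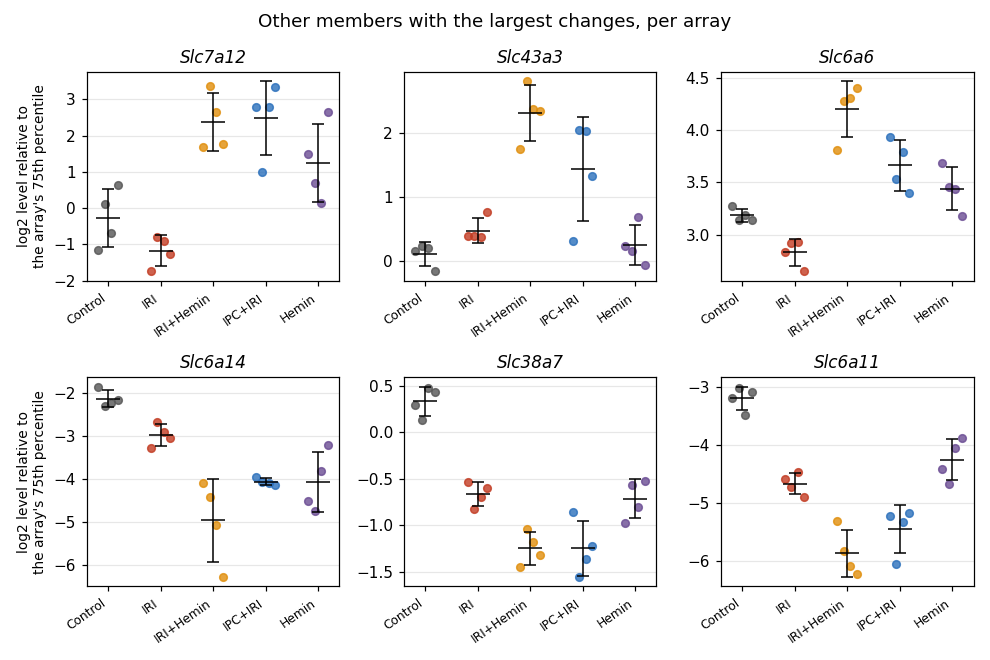
Levels of 6 further genes on each of the 20 arrays (points), with the mean and SD of 4 arrays (bars), as log2 relative to the 75th percentile of the array. Slc7a12 lay between 1.00 and 3.38 in IRI+Hemin and IPC+IRI and between -1.74 and 0.65 in Control and IRI, whereas Slc38a7 and Slc6a11 were highest in Control.

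Several members were highest in Control and lower in every other group. Slc38a7 (SNAT7, the exporter of glutamine from lysosomes) read 0.29, 0.13, 0.48 and 0.43 in Control, -0.53, -0.82, -0.70 and -0.60 in IRI and -0.97, -0.57, -0.80 and -0.52 in Hemin. In IPC+IRI it read -0.86, -1.55, -1.36 and -1.22, and in IRI+Hemin -1.45, -1.04, -1.18 and -1.32. It fell in IRI vs Control (-0.99 ± 0.15, adjusted p = 2.77e-05), in Hemin vs Control (-1.04 ± 0.15, adjusted p = 0.000119), and further in IPC+IRI and IRI+Hemin against IRI (both -0.59, adjusted p = 0.00368 and 0.00362). Without normalization between arrays, 1 of all members was called lower in Hemin vs Control, in place of 11. In IPC+IRI vs IRI 2 were, in place of 16, and Slc7a5 was among them. Most falls in these 2 comparisons, here and below, thus depended on the scaling.

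Slc6a14 (ATB0,+, a broad carrier of neutral and basic amino acids) read -1.85, -2.30, -2.22 and -2.16 in Control. It read -3.29, -2.68, -2.91 and -3.05 in IRI, -4.51, -4.75, -3.82 and -3.22 in Hemin, -3.95, -4.06, -4.10 and -4.13 in IPC+IRI and -4.10, -4.41, -5.06 and -6.27 in IRI+Hemin. Hemin was 3.84-fold below Control (-1.94 ± 0.36, adjusted p = 0.000768), and IRI vs Control, although without overlap, was not called (-0.85, adjusted p = 0.0598). Slc6a11 (a GABA carrier) fell in IRI vs Control (-1.47 ± 0.22, adjusted p = 3.2e-05) and in Hemin vs Control (-1.06, adjusted p = 0.00155). The value in IPC+IRI vs Control was -2.25, or -0.60 and not called with normexp. It passed the filter there through Control, since only 2 of 4 IPC+IRI arrays had a probe well above background, so this call is no support for a difference. Slc1a6, a glutamate carrier known from the cerebellum, was called lower in IRI, Hemin and IPC+IRI than in Control (-1.33, -0.95 and -1.79), with its probe well above background on 2 of 4 IRI and 3 of 4 IPC+IRI arrays. It was tested in IRI vs Control through the Control arrays, so that call is no support for a difference. With normexp neither gene was called in IRI vs Control (-0.06 for Slc6a11 and -0.04 for Slc1a6) or in Hemin vs Control (-0.56 and -0.55). Slc6a15 (B0AT2) was lower in IRI+Hemin than in IRI (-1.48 ± 0.47, adjusted p = 0.0174), with a spread from -4.88 to -1.67 in IRI+Hemin, and without IRI+Hemin replicate 2 or 4 the call was lost (-0.88 and -1.27). Slc38a10 rose by 0.41 in Hemin vs Control (adjusted p = 0.0125), with 0.42 on one probe and -0.22, not called, on the other. With the percentile over probes well above background on all arrays, 1 of all members was called higher in that comparison, in place of 5.

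Slc38a8, a glutamine carrier, was not well above background on the IRI arrays. Control was at least 1.52-fold higher than IRI (adjusted p = 0.000454), IPC+IRI at least 1.27-fold (adjusted p = 0.00363) and IRI+Hemin at least 1.01-fold (adjusted p = 0.0331). The gene passed the filter through the brighter group, so these comparisons are given for the bounds. Each bound sets the mean of the brighter group against the lowest signal well above background on each IRI array, or the reading of the probe itself where that was higher. Tmem27 (collectrin), which helps Slc6a19 to the luminal membrane, was not called in IRI vs Control (-0.25, adjusted p = 0.159) and was lower in IRI+Hemin than in Hemin (-0.50, adjusted p = 0.00946).

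**Figure D5:**
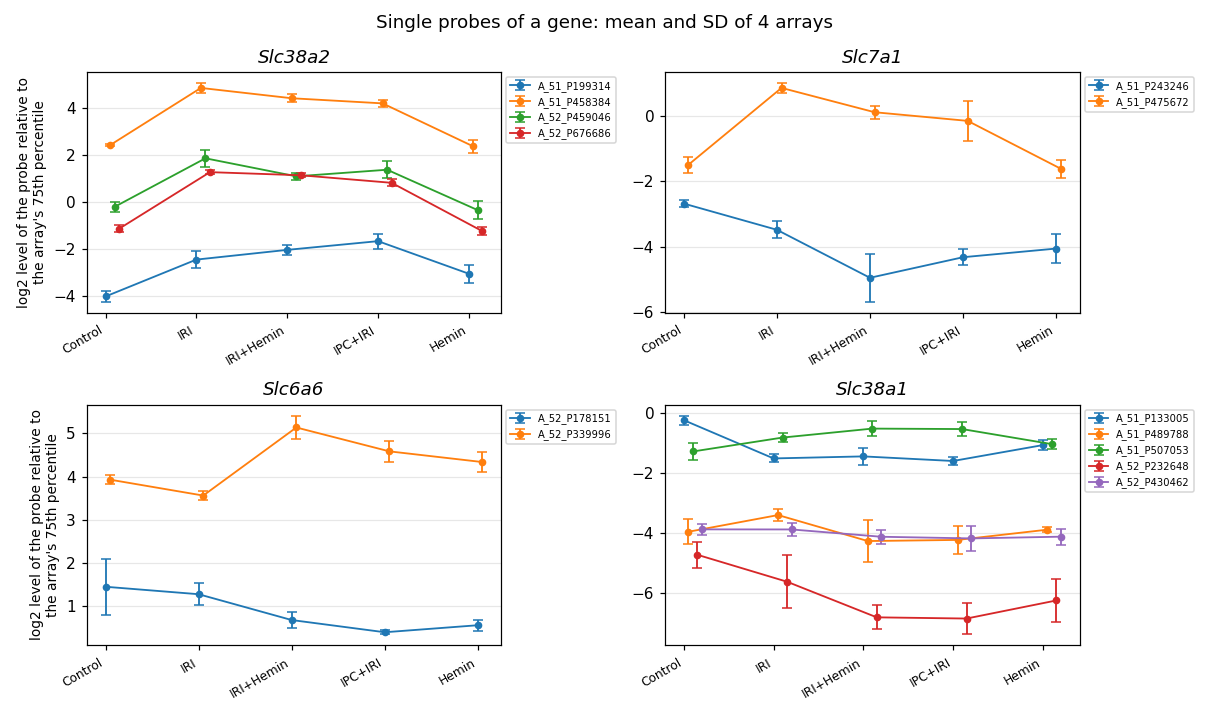
Mean and SD over 4 arrays of each probe of Slc38a2, Slc7a1, Slc6a6 and Slc38a1 in the 5 groups, as log2 relative to the 75th percentile of the array, with lines joining the points of a probe. The 4 probes of Slc38a2 all rose with injury, the 2 probes of Slc7a1 moved apart in IRI (2.35 and -0.80 against Control), and those of Slc6a6 moved apart in IRI+Hemin (1.57 and -0.60 against IRI).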

How the data were processed

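Kidney RNA was labelled with Cy3 and hybridised to one-colour Agilent arrays, 4 in each of 5 groups. The deposited intensity values are the authors' scanner output from Agilent Feature Extraction (the headers give 9.5.3.1), with background subtraction and detrending within an array and no scaling between arrays. The log2 values were deposited by the authors from the same signal: they equal its log2 within 0.001 for 100% of single-spot probes, uncentred, with 18.1% blank for a reason not given in the sources used here. Here spots marked as uneven or as outliers were removed, spots of a probe averaged, each array divided by its 75th percentile over probes, and the probes of a gene name averaged before log2. The limma package (3.58.1, with R 4.3.3 and version 1.17.8 of data.table) was run on all 20 arrays with 5 group means (15 residual degrees of freedom) and tested on simulated data. Benjamini-Hochberg adjustment ran over all genes tested in a comparison, and a gene was called below 0.05. The study used SAM, which was not run here. A gene was tested with at most 1 missing value and at least 3 of 4 arrays of a group well above background. A slide as random block could not be fitted, since each group had 1 slide. The number of arrays limits the precision. Named genes are all heavy chains, luminal, basolateral and uptake members, and for each of the 5 comparisons of the series the 3 largest called rises and falls among members well above background on at least 3 of 4 arrays of each group compared; others are named where a count of 5 or fewer was given or as lists of related genes, and a few (Slc38a8, Slc6a8, Slc6a12, Slc6a13, Slc1a2) after their values were seen. The members and lists were chosen with earlier results of these data known.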

Additional observations from a re-analysis of the deposited data

Results flagged for a closer look

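In 8 of 180 sets of 4 arrays (4.4%), for 36 named genes in 5 groups, 1 array lay far from the other 3; chance gives about 1 in 20. Slc36a2 read -0.34 on Control replicate 2 (others -6.57 to -5.89). The fat cell marker Adipoq read 2.46 on the same array (others -7.08 to -6.78), and its part in the level of Slc36a2 was not tested. Slc7a8 read 4.30 on IPC+IRI replicate 1 (others 3.17 to 3.35), and Slc6a11 -6.05 on IPC+IRI replicate 2 (others -5.32 to -5.18). Slc7a3 read -4.47 on IRI replicate 3 (others -4.95 to -4.91). On IRI replicate 4, Slc43a3 read 0.76 (others 0.37 to 0.39) and Slc38a10 2.98 (others 2.84 to 2.87). Slc7a11 read -6.44 on IRI+Hemin replicate 4 (others -7.42 to -7.30), and Slc1a2 -4.22 on Hemin replicate 2 (others -4.57 to -4.52).

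The interaction term of Hemin and IRI was called higher for 3 of 52 tested members and lower for 1. Of all tested genes, 5.82% were called higher and 1.95% lower. The term was 1.70 for Slc43a3, 1.11 for Slc6a6, 0.96 for Slc1a2 and -1.21 for Slc7a5 on the log2 scale. With normexp 1 member was called higher and 0 lower, and without normalization between arrays 0 and 0. The 4 groups of this term lay on 4 slides and 3 scan days, which cannot be told apart from it.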

How the results depend on the processing

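The causes of the changes below were not tested. Counts of members called higher and lower moved by over 1.5 times under these settings. With normexp (offset 50) they were 4 and 6 in IRI vs Control, 2 and 4 in Hemin vs Control and 1 and 0 for the interaction, and the lower counts were 11 in IPC+IRI vs Control, 6 in IPC+IRI vs IRI and 4 in IPC+IRI vs Hemin. Without normalization between arrays the higher count was 4 in IRI vs Control, the lower counts were 7 in IPC+IRI vs Control, 2 in IPC+IRI vs IRI, 4 in IRI+Hemin vs IRI and 6 in IPC+IRI vs Hemin, Hemin vs Control had 19 higher and 1 lower, and the interaction 0 and 0; the median of all genes in Hemin vs Control was then 0.62 in place of 0.06. With the percentile over probes well above background on all arrays, 1 was higher in Hemin vs Control, and without a filter on dim genes 3. With the deposited log2 values 3 were higher in IRI vs Control, and 5 lower in IPC+IRI vs IRI and 6 in IRI+Hemin vs IRI.

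Leaving out 1 array gave 7 to 10 higher and 13 to 16 lower in IRI vs Control, 9 to 11 and 15 to 19 in IPC+IRI vs Control, 4 to 6 and 11 to 13 in IPC+IRI vs IRI, 9 to 13 and 10 to 13 in IRI+Hemin vs IRI, 2 to 6 and 7 to 12 in Hemin vs Control, 6 to 8 and 7 to 11 in IPC+IRI vs Hemin, and 3 to 4 and 1 to 2 for the interaction. The lowest counts in Hemin vs Control came without Control replicate 3 (2 higher) and 4 (7 lower), that in IPC+IRI vs Hemin without Hemin replicate 2 (7 lower), and that in IPC+IRI vs IRI without IPC+IRI replicate 3 (4 higher).

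These single values changed sign. With normexp, Slc1a2 was 0.09 in IRI vs Control and -0.01 for the interaction, and Slc7a6 -0.07 in IPC+IRI vs Control. Without normalization, Slc38a1 was 0.11 in IPC+IRI vs Control, and in Hemin vs Control Slc38a1 was 0.19, Slc6a20b 0.11 and Slc7a5 0.04. With the brightest probe of a gene, against Control, in the order IRI, IPC+IRI, Hemin, Slc1a2 was 0.25, 0.27 and 0.46 and Slc38a1 0.46, 0.75 and 0.24, and Slc1a1 was -0.49 in IPC+IRI vs IRI. With the deposited values, Slc3a2 was -0.73 in IRI vs Control and 0.82 in IPC+IRI vs IRI, and Slc38a2 0.08 in IPC+IRI vs IRI and 0.31 in IRI+Hemin vs IRI. Single probes, an alternative chosen after seeing the data, gave the brightest-probe values of Slc1a2 and Slc38a1 again. Other single probes gave -0.80 and -1.64 for Slc7a1 in IRI and IPC+IRI vs Control, -0.27 and -0.89 in IPC+IRI and IRI+Hemin vs Hemin, and 0.55 and 0.07 for Slc38a1 in IRI and Hemin vs Control. For Slc38a10 they gave -0.58 in IPC+IRI vs Control, -0.07 in IRI+Hemin vs IRI and -0.22 in Hemin vs Control, for Slc6a6 -1.05 in IPC+IRI vs Control, -0.88 in IPC+IRI vs IRI and -0.60 in IRI+Hemin vs IRI, and for Slc38a2 0.78 and 0.41 in IPC+IRI and IRI+Hemin vs IRI.

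Replicate numbers did not pair the arrays (40 pairs, correlations of -0.33 to 0.21, 6 over 0.1). With the replicate number as a block, 7 rose and 14 fell in IRI vs Control, 10 and 16 in IPC+IRI vs Control and 6 and 13 in IPC+IRI vs IRI, and no count moved by over 1.5 times. Of 275 single values the replicate block kept the direction and call of 266, and 7 lost and 2 gained a call. Keeping the spots marked by the scanner changed none of the 275 calls. A slide block was not run, since each group had 1 slide. Signal near background limits the dim genes.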
